A study of Homo sapiens with 4 samples.

Results

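The genes described here are the well expressed members of the ZNF series of human zinc finger genes, measured in HEK293, a human cell line of embryonic kidney origin that is long established in culture. A gene was a member when its symbol was ZNF followed by a number, with or without a final letter, and when its mean over the 4 libraries was at least 8 TPM (a transcript abundance that is corrected for gene length and scaled to a fixed sum). ZNF598 was left out by rule. These conditions selected 309 of the 511 such ZNF symbols, in tables of 20457 gene symbols. The level of each gene therefore chose the members, and their presence above 8 TPM is not a result. The 3 genes just inside the limit were ZNF197 (mean 8.04 TPM), ZNF496 (8.04 TPM) and ZNF276 (8.05 TPM), and the 3 just outside were ZNF595 (7.99 TPM), ZNF823 (7.94 TPM) and ZNF784 (7.87 TPM). Of the members, 242 had a mean of at least 8 TPM in each group of libraries, 65 only in the CNOT4 knockdown group and 2 only in the control group. The 65 passed the limit through the group in which they were higher, so some results are also given for the 242.

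The study compared HEK293 cells treated for 72 h with 10 nM of a control siRNA (siControl, 2 libraries, genotype labelled WT) with cells treated for the same time and at the same dose with siRNA against CNOT4 (siCNOT4, 2 libraries, labelled as a CNOT4 knockdown). CNOT4 has ubiquitin ligase activity and works alongside CCR4-NOT, the deadenylase complex that shortens the poly(A) tails of mRNA. Poly(A) RNA was selected from total RNA and made into stranded libraries. The labels do not say whether replicates came from separate cultures, so the p-values below measure only the spread between these libraries. The knockdown rests on siRNA alone, and in bulk RNA a loss in every cell and a loss in a share of the cells cannot be told apart.

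Most ZNF genes encode C2H2 zinc finger proteins, in which tandem fingers, each folded around a zinc ion by paired cysteines and histidines, read DNA sequence. Consecutive fingers are joined by a short conserved linker. Many carry a KRAB box near the amino terminus, which recruits the corepressor TRIM28 and, through it, the histone methyltransferase SETDB1, and much of their binding is to transposable elements. They arose largely by tandem duplication, and many stand in clusters on chromosome 19.

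Of the 309 members, 304 matched a GENCODE 29 gene by symbol and 3 by an older symbol, and 303 had a coding sequence. The others were ZNF252P, ZNF542, ZNF271 and ZNF204P, annotated as pseudogenes, and ZNF883 and ZNF503, which were not matched. A KRAB box was found in any coding isoform of 198 of the 303 genes. A SCAN domain, a dimerisation domain of some zinc finger proteins, was found in the longest protein of 19 genes, of which 11 also had KRAB. The median number of C2H2 fingers was 10, with a maximum of 31. A total of 282 members had at least 3 fingers and 5 had none by the pattern used. Chromosome 19 held 146 members.

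The members differ in GC3, the percentage of codons that end in G or C, and their differences between the groups are described below by GC3. Because the linker encodes nearly the same residues in finger after finger, its codons can be compared between genes. They follow the GC3 of the whole coding sequence only in part, as given below. In 213 of the members considered for printing the linker ran into the start of a finger, read as an aromatic residue, any residue and a cysteine. For 11 of these, the 3 with the greatest differences, the 3 with the lowest, the 3 of lowest GC3 and the 3 of highest GC3 (ZNF787 is in 2 of these sets), the first such linker (threonine, glycine, glutamate, lysine, proline) and the next 5 codons are printed 5′ to 3′ in lower case, with the third base of each of the 10 codons in capitals.
ZNF221: acTggAgaGaaAccAttCaaAtgTggGcaA
ZNF780B: acTggAgaGaaAccCtaTaaAtgCaaAgaA
ZNF354C: acAggTgaGaaAccCtaCaaAtgTaaTgaG
ZNF404: acTggTgaAaaAccCtaTgaAtgTaaAgaA
ZNF85: acGggAgaGaaAccTtaCaaAtgTgaAgaA
ZNF850: acTggTgaGaaAccCtaTcaTtgTaaGcaA
ZNF853: acGggCgaGaaAccCtaCgcCtgCtcCtaC
ZNF48: acAggGgaGaaAccCtaCaaGtgTggGgtC
ZNF629: acCggCgaGaaGccCtaCaaGtgCccCgaC
ZNF71: acGggAgaAaaGccGttTgaGtgTgaCacC
ZNF787: acGggCgaGaaGccCtaCgcCtgCttGgaG
In GRCh38 these coding stretches lie on the plus strand at chr19:43966247-43966276 for ZNF221, chr5:179079147-179079176 for ZNF354C, chr19:20949187-20949216 for ZNF85, chr7:6622597-6622626 for ZNF853, chr16:30397653-30397682 for ZNF48 and chr19:56621744-56621773 for ZNF71. They lie on the minus strand at chr19:40036268-40036297 for ZNF780B, chr19:43872717-43872746 for ZNF404, chr19:36750101-36750130 for ZNF850, chr16:30783698-30783727 for ZNF629 and chr19:56088794-56088823 for ZNF787. In ZNF221, ZNF780B, ZNF85 and ZNF850, 3 of the 10 codons end in G or C, in ZNF354C 4 do and in ZNF404 1 does. The number is 9 in ZNF853, 7 in ZNF48, 6 in ZNF71 and 10 in ZNF629 and ZNF787. Over the whole coding sequence GC3 was 41.2% in ZNF221, 33.5% in ZNF780B, 41.5% in ZNF354C, 30.3% in ZNF404, 30.3% in ZNF85, 30.6% in ZNF850, 78.3% in ZNF853, 63.9% in ZNF48, 82.7% in ZNF629, 84.2% in ZNF71 and 92.9% in ZNF787. The window does not always follow the whole gene, since ZNF71 has fewer such codons there than ZNF629 although its GC3 is higher. ZNF404, among the lowest in GC3, had a log2 difference of 0.41 between the groups, below the median of the members given below.

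The targeted gene and the state of the libraries bear on every comparison. CNOT4 was at 6.43 and 4.73 TPM in siControl and at 3.38 and 3.81 TPM in siCNOT4, a log2 difference of -0.51 (SE 0.26) that did not pass the test (limma, Benjamini-Hochberg adjusted p = 0.184). It was called lower in limma with TMM scaling (-0.95, adjusted p = 0.0359), with quantile normalization (-1.15, adjusted p = 0.0252), with a trend on length and GC content removed (-1.12, adjusted p = 0.0122) and without siControl replicate 2 (-0.70, adjusted p = 0.00975), and over its 10 alternatives the adjusted p ran from 0.00975 to 0.743. Over all 14208 features with a mean of at least 1 TPM, the median log2 difference was 0.50, so most values were higher in siCNOT4, and CNOT4 was 1.01 below that median. The control libraries stood further apart than the knockdown libraries, with Pearson correlations across genes of 0.975 and 0.994 (log2 scale, 14208 features, a description). The share of TPM held by the top 100 features was 33.1% and 39.8% for siControl but 26.6% and 25.5% for siCNOT4. Of 8 HEK293 markers, 7 were at 1 TPM or more in every library (NEFM was below), with sums of 1489 and 1237 TPM in siControl and 1028 and 1061 TPM in siCNOT4. VIM alone was lower by more than the sum, at 917 and 650 TPM against 369 and 354 TPM, and without it the sums were 572 and 587 TPM in siControl and 659 and 707 TPM in siCNOT4. Of 8 markers of other cell types none reached 1 TPM in every library, and none was at 0 in every library. Their sums were 2.02 and 2.02 TPM in siControl and 6.08 and 7.44 TPM in siCNOT4, of which COL1A1 made up 1.39 and 0.906 TPM and then 5.09 and 6.60 TPM. The part of these differences in the results below was not tested.

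As a group, the ZNF members were higher in siCNOT4, and by more than the typical feature. The values include the 65 members that passed the limit only through siCNOT4, which favours this direction. Their summed level was 7187 and 5049 TPM in siControl and 9045 and 9133 TPM in siCNOT4, which is 0.719%, 0.505%, 0.905% and 0.913% of all TPM. The median member stood at 15.1 and 9.07 TPM in siControl and at 19.8 and 20.2 TPM in siCNOT4. Both siCNOT4 libraries were above both siControl libraries in these sums and medians, and siControl replicate 2 was the lowest.

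Differences are siCNOT4 minus siControl on the log2(TPM + 1) scale, which understates the change of genes with low values. The median difference of the members was 0.75, with quartiles of 0.40 and 1.00 and a range from -0.99 to 2.15. Over all tested features the median was 0.50, with quartiles of 0.13 and 0.87. The SD over genes was 0.47 in the members and 0.57 in all tested features, which start at a mean of 1 TPM and not 8 TPM. The sets thus differ in level, and no SD at a like level is given. Of the 309 members, 280 (90.6%) had a positive difference, against 81.2% of all tested features. In 208 members (67.3%) the difference lay above the median of all tested features, and in 101 it lay below.

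In 253 members both siCNOT4 libraries were above both siControl libraries, which is 81.9% of them, beside 66.4% of all tested features. In 14 members both were below, beside 10.6% of features, and in 42 the groups overlapped. At an adjusted p under 0.05 in limma, 18 members rose (5.83%), beside 11.3% of all tested features, and none fell, beside 1.3% of features. The share of members called was thus below the background although their median difference was above it. At an unadjusted p under 0.05, 150 members were higher, beside 38% of features, and 3 were lower (ZNF259, ZNF581 and ZNF853), beside 4% of features. Among the 242 members with both group means at 8 TPM or more, the median difference was 0.68 and 11 were called higher (4.55%). That median was 0.18 above the median of all tested features, against 0.25 for all members. Both siCNOT4 libraries were above both siControl libraries in 78.9% of the 242 and below in 5.37%.

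The 2 control libraries differed from each other in most members too. Replicate 1 of siControl exceeded replicate 2 in 292 of the 309 members, by a median of 0.59, while the median over all tested features was 0.38. The siCNOT4 replicates differed by a median of -0.02 in the members, and replicate 1 was higher in 137 of them. Without siControl replicate 2 the members' median was 0.40 and its excess over all tested features 0.10, against 0.25 with all libraries. Without siControl replicate 1 the median was 1.02 and the excess 0.31.

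The split of calls depended on scaling. With TMM scaling, which sets the bulk of features to no change and lowered the median of all tested features from 0.50 to 0.01, 4 members were called higher and 4 lower, beside 4.45% and 4.33% of features, and the members' median was 0.23. By non-overlap, 150 were higher and 72 lower, beside 35.3% and 34.4% of features. The 4 called higher were ZNF221, ZNF780B, ZNF429 and ZNF268, and the 4 called lower were ZNF853, ZNF259, ZNF358 and ZNF511. With quantile normalization 15 were called higher and 14 lower, beside 7.11% and 8.23% of features, and 150 and 73 did not overlap, beside 36.2% and 33.4%. With a trend on transcript length and GC content removed, 26 were called higher and 18 lower of 307 members, beside 11.4% and 13.2% of features, and 124 and 81 did not overlap, beside 35.3% and 36.3%. In that fit the members' median was 0.10 above that of all features.

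**Figure D1:**
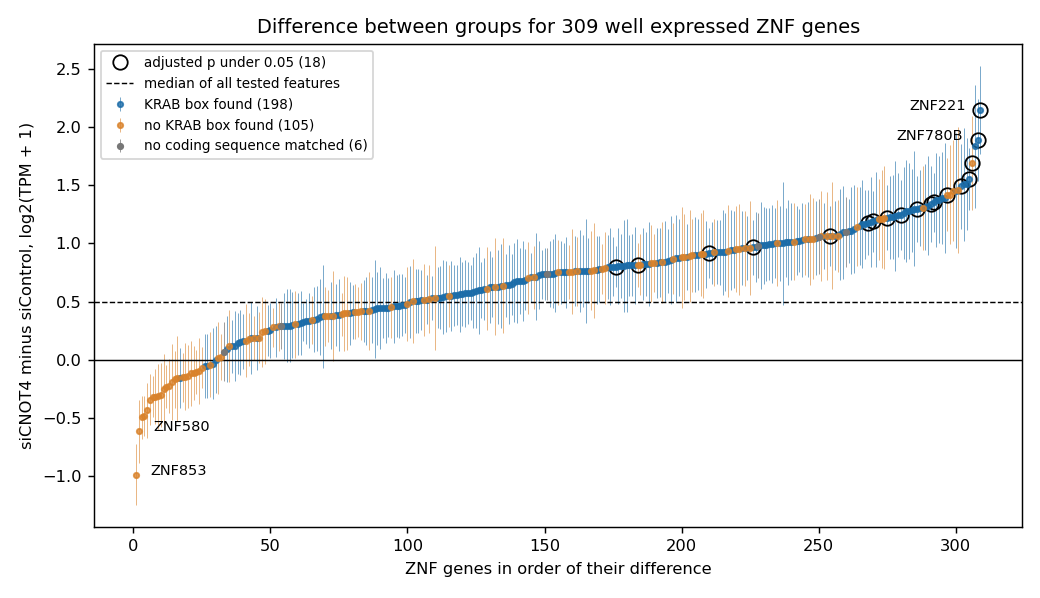
Differences of the 309 ZNF members between siCNOT4 and siControl, log2(TPM + 1) on the vertical axis, in rising order on the horizontal axis. Points are genes (blue, KRAB box found; orange, none found; grey, no coding sequence), bars are SE from limma, ringed points passed an adjusted p of 0.05 and the dashed line is the median of all tested features, 0.50. The genes run from ZNF853 at -0.99 to ZNF221 at 2.15, and orange points gather at the low end.

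Of the 18 members that rose, 15 had a KRAB box, which is 7.58% of the KRAB members, below the 11.3% of all tested features. Of these 18, 7 (ZNF221, ZNF264, ZNF429, ZNF540, ZNF625, ZNF780B and ZNF789) had a siControl mean below 8 TPM, so that they are members only through their level in siCNOT4, and all 7 had KRAB. Among the other 11, 8 had KRAB, beside 147 of the 237 members with a coding sequence and both group means at 8 TPM or more. Of the 8 members with the greatest differences, 5 (ZNF221, ZNF780B, ZNF354C, ZNF429 and ZNF778) likewise passed the limit only through siCNOT4, so their place at the top is a description. ZNF221, a KRAB gene with 15 fingers at chr19:43951223-43967709 (GRCh38), had 6.65 and 2.94 TPM in siControl and 24.7 and 22.0 TPM in siCNOT4. Both knockdown libraries stood well above both controls. The log2 difference was 2.15 (SE 0.38, limma adjusted p = 0.0307). Among all 309 members it alone lay more than 1.5 interquartile ranges above the upper quartile, a place that its selection through siCNOT4 favours. Without siControl replicate 2, the lower control, the difference was 1.67.

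ZNF780B, a KRAB gene with 21 fingers at chr19:40028260-40056209, had 7.13 and 3.55 TPM in siControl and 20.7 and 22.4 TPM in siCNOT4. Its difference was 1.89 (SE 0.35, limma adjusted p = 0.0336), and the groups did not overlap. ZNF429, a KRAB gene with 15 fingers at chr19:21496682-21556270, had controls that lay close together, at 4.77 and 3.97 TPM, and 14.8 and 14.7 TPM in siCNOT4. Its difference was 1.55 (SE 0.27) with the smallest adjusted p among the members, 0.0294 in limma. Neither group was spread widely, and without siControl replicate 2 the difference was 1.45. ZNF268, with 24 fingers, had 13.5 and 10.6 TPM in siControl and 32.8 and 31.4 TPM in siCNOT4 (difference 1.35, SE 0.25, limma adjusted p = 0.0335). These 4 genes were also called higher with TMM scaling. With the length and GC trend removed, ZNF268 was at 0.40 and not called (limma adjusted p = 0.202, range over its 11 alternatives 6.12e-05 to 0.358), while ZNF221 (1.66), ZNF780B (0.92) and ZNF429 (0.94) were called at smaller differences.

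In some of the other genes that rose, the siControl replicates were themselves far apart. ZNF678, a gene on chromosome 1 without a detected KRAB box, had 13.0 and 5.43 TPM in siControl and 31.9 and 27.4 TPM in siCNOT4 (difference 1.69, limma adjusted p = 0.0479). ZNF45, a KRAB gene, had 40.6 and 18.2 TPM in siControl and 77.4 and 79.3 TPM in siCNOT4 (1.49, adjusted p = 0.0496). In both, siControl replicate 1 was more than 1 log2 unit above replicate 2, and both siCNOT4 libraries were above it. Without siControl replicate 2 the differences were 1.13 for ZNF678 and 0.93 for ZNF45. ZNF24, a SCAN protein known for its part in myelination, had 62.8 and 32.4 TPM in siControl and 128 and 116 TPM in siCNOT4 (1.42, limma adjusted p = 0.0439).

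ZNF283 had 24.7 and 15.1 TPM in siControl and 50.6 and 47.4 TPM in siCNOT4 (1.30, limma adjusted p = 0.0436). ZNF287, which has both SCAN and KRAB, had 10.7 and 8.55 TPM in siControl and 22.9 and 23.3 TPM in siCNOT4 (1.19, limma adjusted p = 0.0439). ZNF625 had 6.37 and 5.49 TPM in siControl and 13.8 and 16.6 TPM in siCNOT4 (1.22, limma adjusted p = 0.0445), and it overlaps the readthrough gene ZNF625-ZNF20 on the same strand, so its reads may be divided between them. In all 3 genes the groups did not overlap.

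Smaller increases were also called. ZNF266 had 30.6 and 24.5 TPM in siControl and 51.0 and 53.9 TPM in siCNOT4 (0.91, limma adjusted p = 0.0471). ZNF226 had 60.8 and 52.9 TPM in siControl and 95.8 and 103 TPM in siCNOT4 (0.80, limma adjusted p = 0.0436). ZNF622, a cytoplasmic protein of 60S ribosomal subunit maturation that has 3 fingers and no KRAB box, was the only one of the 18 with the higher control in replicate 2, at 60.3 TPM in replicate 1 and 78.1 TPM in replicate 2, with 116 and 127 TPM in siCNOT4. Its difference was 0.82 (SE 0.19, limma adjusted p = 0.0474), and without siControl replicate 2 it was 1.00, higher than with it. The remaining called genes, all with KRAB, were ZNF264 (1.34), ZNF211 (1.24), ZNF540 (1.18), ZNF789 (1.06) and ZNF75A (0.97).

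Large differences were not always called. ZNF354C, a KRAB gene with 11 fingers, had the third greatest difference, 1.83 (SE 0.53), but its controls were at 10.9 and 2.84 TPM, beside 24.2 and 21.9 TPM in siCNOT4, and the limma adjusted p was 0.0636. ZNF778 (8.85 and 3.81 TPM in siControl, 18.1 and 19.1 TPM in siCNOT4) and ZNF791 (17.8 and 5.78 TPM, 33.5 and 28.8 TPM) each had a difference of 1.51 and limma adjusted p-values of 0.0544 and 0.0757. In all 3 the groups did not overlap, and siControl replicate 2 was by far the lowest library. Without it the differences were 1.02 for ZNF354C, 0.99 for ZNF778 and 0.77 for ZNF791.

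All 18 adjusted p-values lay between 0.0294 and 0.0496, close to the threshold. None of the 18 was called when features below a mean of 5 TPM were left out of the fit or when siCNOT4 replicate 1 was left out, and 1 was called without siCNOT4 replicate 2.

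**Figure D2:**
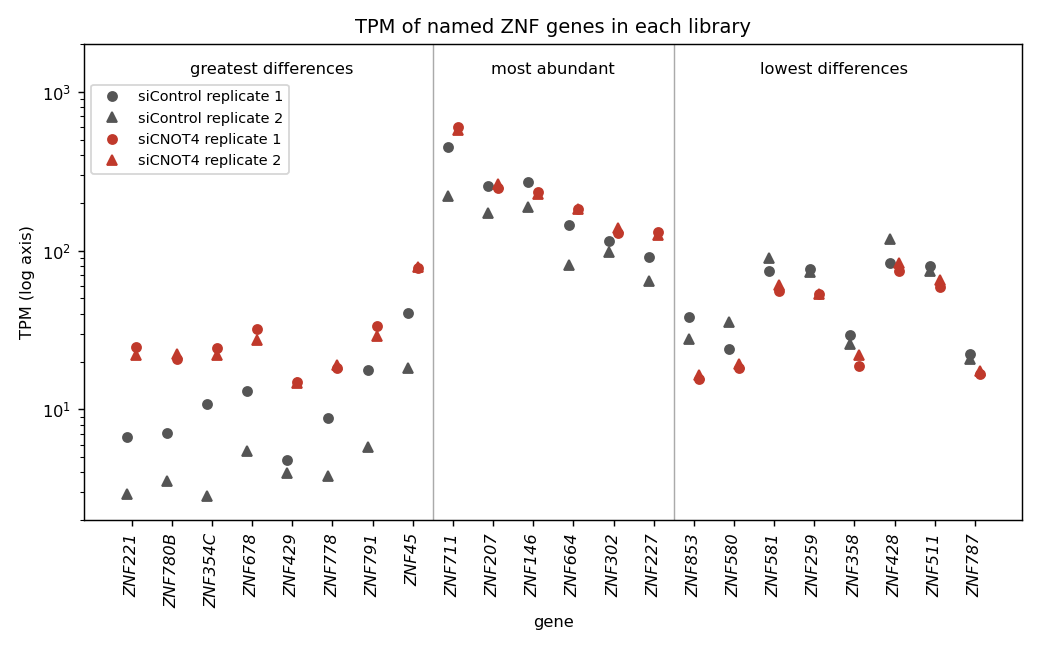
TPM (log axis) in each library of the 8 members with the greatest differences, the 6 most abundant and the 8 with the lowest differences. Grey symbols are siControl and red symbols siCNOT4, with circles for replicate 1 and triangles for replicate 2. On the left all red symbols lie above the grey ones, as for ZNF221 (22.0 and 24.7 TPM over 2.94 and 6.65 TPM), and on the right all red symbols lie below the grey ones.

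At the other end, ZNF853 had the lowest difference. It is a gene at chr7:6615617-6624290 with 5 fingers and no KRAB box, and it had 38.3 and 27.8 TPM in siControl and 15.5 and 16.5 TPM in siCNOT4. Both knockdown libraries were below both controls. The difference was -0.99 (SE 0.26), which did not pass the test (limma adjusted p = 0.0553). It was called lower with TMM scaling, at -1.51 (limma adjusted p = 0.0298), and over its 11 alternatives the difference ran from -1.51 to -0.76 and the adjusted p from 0.000715 to 0.448.

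ZNF580 had 24.1 and 35.7 TPM in siControl and 18.3 and 19.3 TPM in siCNOT4, a difference of -0.61 (SE 0.27, limma adjusted p = 0.137). Its neighbour ZNF581 had 74.8 and 90.2 TPM in siControl and 55.7 and 60.3 TPM in siCNOT4, a difference of -0.50 (limma adjusted p = 0.101). The 2 genes overlap on the same strand of chromosome 19, so their reads may be divided between them and they are not independent. Both were higher in siControl replicate 2 than in replicate 1, the reverse of most members. ZNF853 and ZNF580 were the only members more than 1.5 interquartile ranges below the lower quartile.

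ZNF259 is an older symbol of ZPR1, a zinc finger protein of another class, in which no C2H2 finger was found. It had 76.0 and 73.0 TPM in siControl and 53.0 and 53.3 TPM in siCNOT4, the tightest groups among these genes. The difference was -0.48 (SE 0.17, limma adjusted p = 0.0922). ZNF358 (-0.43), ZNF428 (-0.34), ZNF511 (-0.32) and ZNF787 (-0.32) also had low values that did not pass the test. None of the 8 members with the lowest differences had a KRAB box, and their GC3 ran from 61.0% in ZNF259 to 92.9% in ZNF787.

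The 6 most abundant members ranged from a difference of 0.02 to one of 0.90. ZNF711, an X-linked activator known for its link to intellectual disability, was at 447 and 221 TPM in siControl and 598 and 576 TPM in siCNOT4 (0.90, limma adjusted p = 0.0875). ZNF664 was at 145 and 80.5 TPM in siControl and 182 and 183 TPM in siCNOT4 (0.75), and it overlaps RFLNA on the same strand. ZNF227, a KRAB gene of chromosome 19, was at 91.3 and 64.6 TPM in siControl and 131 and 126 TPM in siCNOT4 (0.73). In these 3 the groups did not overlap, and none passed the test.

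ZNF207, also known as BuGZ, a spindle and kinetochore protein, was at 256 and 173 TPM in siControl and 249 and 264 TPM in siCNOT4 (0.29, and -0.26 with TMM scaling). ZNF146, which consists almost wholly of fingers, was at 270 and 189 TPM in siControl and 232 and 227 TPM in siCNOT4 (0.02, and -0.52 with TMM scaling). For both the groups overlapped, since siControl replicate 1 was above at least 1 siCNOT4 library. ZNF302 was at 115 and 98.6 TPM in siControl and 130 and 138 TPM in siCNOT4 (0.32, and -0.22 with TMM scaling). Across the 309 members, the Spearman correlation of mean TPM with the difference was -0.14, given as a description.

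The members with a KRAB box had a higher median difference than those without. The median was 0.77 in the 198 KRAB members and 0.52 in the 105 without, the latter close to the 0.50 of all tested features. Of the KRAB members, 147 had both group means at 8 TPM or more, beside 237 of all 303 with a coding sequence. Nearly all of the others passed the limit only through siCNOT4, which favours high differences. Medians by KRAB at both means are not given, and the part of this selection was not tested. Both siCNOT4 libraries were above both controls in 180 KRAB members and below in 1, and in the other set these counts were 68 and 13. As shares these are 90.9% and 0.505% with KRAB and 64.8% and 12.4% without, beside 66.4% and 10.6% of all tested features, so that the set without KRAB was near the background. The control replicates differed about alike in both sets, by medians of 0.59 and 0.63. Without siControl replicate 2 the medians were 0.50 and 0.27, beside 0.29 for all tested features. With TMM scaling they were 0.26 and 0.03, and with the length and GC trend removed 0.11 and -0.01. SCAN members (19) had a median of 0.57.

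The number of fingers followed the same order. Members with 0 to 2 fingers (21) had a median difference of 0.37, those with 3 to 6 (49) of 0.46, those with 7 to 11 (108) of 0.74 and those with 12 or more (125) of 0.84. With TMM scaling the first 2 of these medians turned to -0.15 and -0.04, and the others were 0.21 and 0.34. Of the 18 members that rose, 12 had at least 12 fingers, which is 9.6% of such members, below the 11.3% of all tested features. Across the 303 members with a coding sequence the Spearman correlation of finger number with the difference was 0.36. These genes share libraries, and finger number moves with GC3, whose median was 39.0% in members with 12 or more fingers and 55.6% in those with 0 to 2.

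The difference declined with GC3. The median GC3 of the members was 43.3%, with a range from 26.4% to 92.9%, against a median of 59.0% over 12858 tested genes. Split into 4 bins of equal size by GC3, the members had median differences of 0.89, 0.80, 0.75 and 0.37 from the lowest to the highest GC3. Among all tested genes in the same GC3 ranges the medians were 0.82, 0.73, 0.58 and 0.36, so that the members were 0.01 to 0.17 above all tested genes of like codon composition, compared with 0.25 above all features. With TMM scaling the 4 medians of the members were 0.36, 0.30, 0.22 and -0.15, so that the highest bin turned negative. Those of all tested genes in the same ranges were 0.31, 0.22, 0.08 and -0.13. In the highest bin the members were thus not above tested genes of like GC3 in that fit. With the length and GC trend removed its medians were -0.13 and -0.02, and without siControl replicate 2 they were 0.06 and 0.19, members first. In the main fit both siCNOT4 libraries were above both controls in 48.7% of that bin, beside 57.8% of tested genes there. That bin held 12 of the 14 members in which both siCNOT4 libraries were lower than both controls. These are 15.8% of the bin, beside 15.2% of all tested genes in its GC3 range.

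Within bins, the median differences of members with and without KRAB were close in the main fit, and in no fixed order. From the lowest bin the medians were 0.86 with KRAB and 0.92 without, then 0.80 and 0.80, then 0.69 and 0.76, and 0.40 and 0.34 in the highest. KRAB members made up 56 of 76 members in the lowest bin and 24 of 76 in the highest. From the lowest bin to the highest the bins held 6, 7, 4 and 1 of the 18 members that rose, or 7.89%, 9.21%, 5.33% and 1.32% of their members. Among all tested genes in the same ranges 14.5%, 14.3%, 12.3% and 9.47% were called higher, so the members were below the background in every bin.

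**Figure D3:**
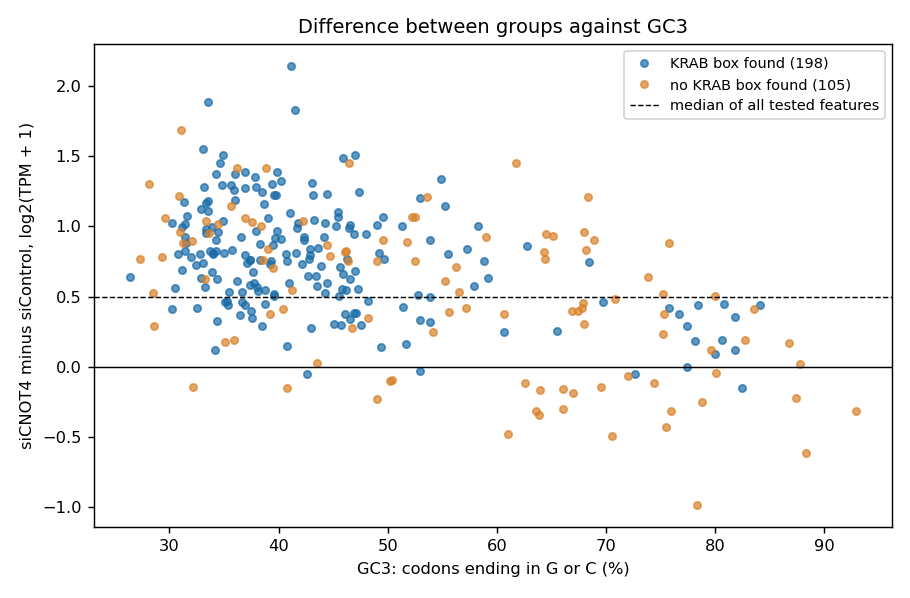
Difference between siCNOT4 and siControl (log2(TPM + 1), vertical axis) against GC3 in percent (horizontal axis) for the 303 members with a coding sequence, in blue with a KRAB box (198) and in orange without (105). The dashed line is the median of all tested features, 0.50. Values decline toward high GC3, where 20 of the 25 orange points below 0 lie in the highest of 4 equal bins, with 2 of the 4 blue ones.

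The same gradient stood between replicates of the same group. The Spearman correlation of GC3 with the difference between groups was -0.45 over the 303 members, and with the difference between siCNOT4 replicates it was -0.43, although that difference was small. With the difference between siControl replicates it was -0.20. Over the 4 bins the median excess of siControl replicate 1 over replicate 2 was 0.69, 0.59, 0.58 and 0.45, and that of the siCNOT4 replicates was 0.05, 0.01, -0.02 and -0.11. Transcript length correlated with the group difference at 0.37 and with the siControl replicate difference at 0.57. With the length and GC trend removed the correlation of GC3 with the group difference was -0.20. All are descriptions across genes that share the 4 libraries, and the part of library composition in the group difference was not tested.

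**Figure D4:**
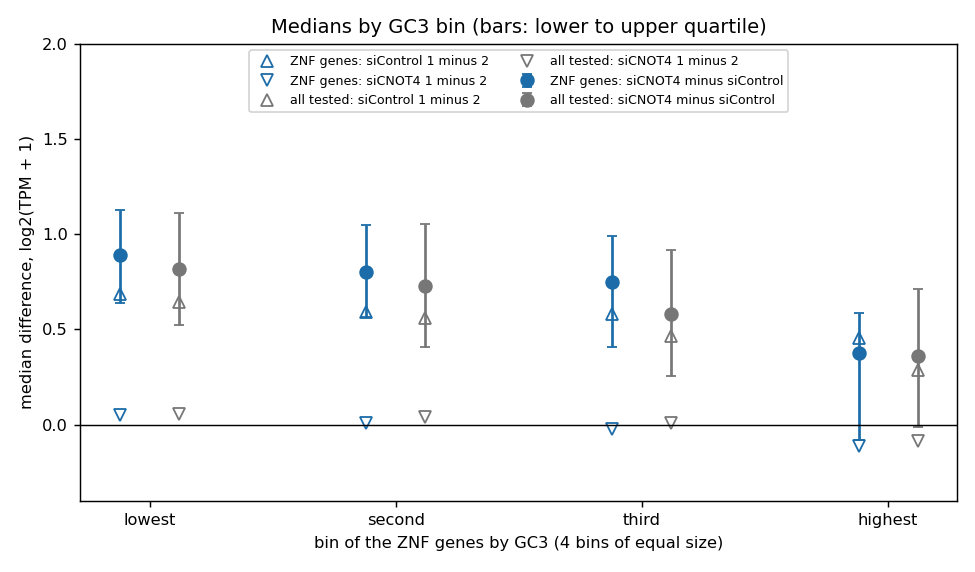
Median differences by bin of GC3 for the ZNF members (blue) and for all tested genes in the same GC3 ranges (grey), log2(TPM + 1). Filled circles are siCNOT4 minus siControl with bars from the lower to the upper quartile, upward triangles are siControl replicate 1 minus 2 and downward triangles siCNOT4 replicate 1 minus 2. Blue circles fall from 0.89 to 0.37 and grey ones from 0.82 to 0.36, and the control replicates differ in every bin.

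The linker codons printed above varied widely within the family. A total of 224 members had at least 1 such linker, with 1290 linkers in all, and 128 members, 115 of them with KRAB, had at least 5. Over those 128 the percentage of linker codons ending in G or C had a median of 36.3% and ran from 18.8% to 96.4%. Its Spearman correlation with GC3 over the whole coding sequence was 0.41, and with the difference between groups it was -0.22. The 64 members with the lower linker values had a median difference of 0.92 and the other 64 of 0.75.

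At the extremes of GC3, the 3 lowest members were ZNF720 (26.4%), which encodes a KRAB protein with no finger found, ZNF800 (27.3%) and ZNF518A (28.1%). ZNF720 had 8.01 and 6.79 TPM in siControl and 11.7 and 12.5 TPM in siCNOT4 (0.64), ZNF800 had 9.89 and 4.11 TPM and 12.5 and 10.9 TPM (0.77), and ZNF518A had 17.0 and 8.24 TPM and 30.5 and 31.3 TPM (1.31). None passed the test. The 3 highest were ZNF787 (-0.32), ZNF580 (-0.61) and ZNF703 (0.02, and -0.51 with TMM scaling), all below the highest bin's median of 0.37. ZNF787, with the highest GC3, had 22.2 and 20.8 TPM in siControl and 16.8 and 17.3 TPM in siCNOT4.

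By position, the 146 members of chromosome 19 had a median difference of 0.81 and the 161 matched members elsewhere 0.63. With GC3 medians of 41.0% and 47.6%, the sets also differed in composition. Taking neighbours whose starts were at most 300 kb apart, 9 runs of at least 6 members held 129 members, 7 of these runs on chromosome 19. The largest, of 33 members at chr19:57191500-58481230, had a median of 0.71 and ranged from -0.06 in ZNF446 to 1.34 in ZNF264. The run of 18 members at chr19:51571298-53580269, all with KRAB, had a median of 0.86. Both siCNOT4 libraries were above both controls in all 18, beside 90.9% of all KRAB members and 66.4% of all tested features. On chromosome 16, the 7 members at chr16:30378106-31084196 had a median of 0.12 and a median GC3 of 75.8%, and ran from -0.17 in ZNF48 to 0.96 in ZNF646.

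Values varied among neighbours. The run of 19 members at chr19:43596392-44500524, 17 of them with KRAB, had a median of 0.90. Of its 19 members 4 were called higher (ZNF283, ZNF45, ZNF221 and ZNF226), beside 5.83% of all members and 11.3% of all tested features. ZNF221 passed the limit of 8 TPM only through siCNOT4, and the number of calls in the run was not tested. The run contained both the greatest difference in the family, that of ZNF221, and one of the lowest, that of ZNF428 at -0.34. ZNF155, the next gene after ZNF221 on the same strand, had 47.8 and 40.9 TPM in siControl and 63.3 and 65.0 TPM in siCNOT4, a difference of 0.53 (-0.01 with TMM scaling). ZNF224, a KRAB repressor known from the aldolase A promoter, stood near the middle of the run with 45.1 and 26.7 TPM in siControl and 66.6 and 66.9 TPM in siCNOT4, a difference of 0.92 that did not pass the test. ZNF155 and ZNF224 were chosen after their values were seen.

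**Figure D5:**
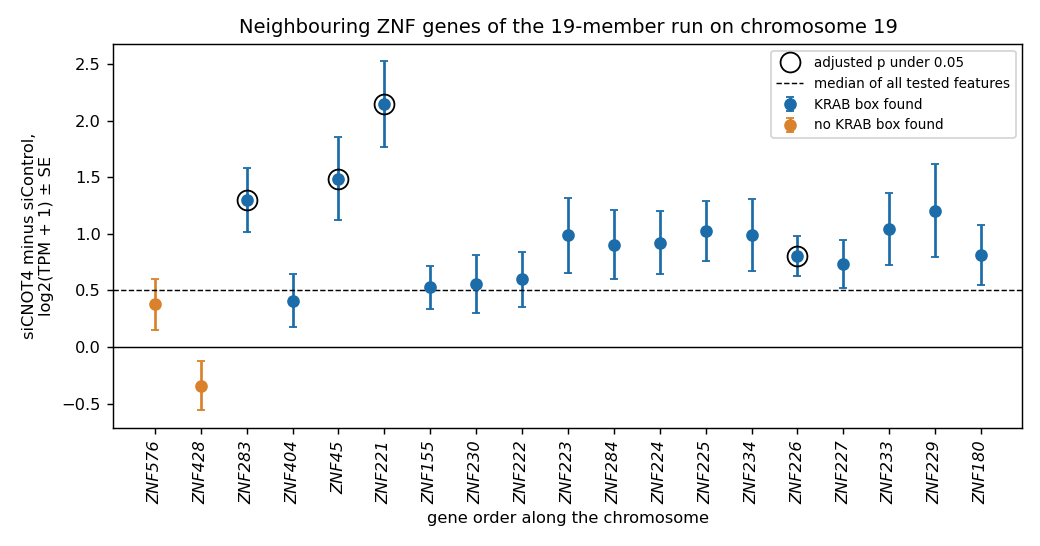
Differences (log2(TPM + 1), with SE from limma) of the 19 members of the run at 43.6 to 44.5 Mb of chromosome 19, in gene order. Blue points have a KRAB box, orange points none, ringed points passed an adjusted p of 0.05 and the dashed line is the median of all tested features. ZNF221 at 2.15 stands beside ZNF155 at 0.53, and the 2 genes without KRAB, ZNF576 and ZNF428, open the run with low values.

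Members with the same number and different letters were also compared. ZNF354A, ZNF354B and ZNF354C on chromosome 5 had differences of 0.12 (-0.42 with TMM scaling), 0.81 and 1.83. ZNF354A had 41.7 and 31.2 TPM in siControl and 39.8 and 38.7 TPM in siCNOT4, so its groups overlapped. The proteins of ZNF354A and ZNF354B were 85.0% identical and those of ZNF354A and ZNF354C 42.7%. ZNF780A (1.16) and ZNF780B (1.89) were 67.8% identical, ZNF585A (1.00) and ZNF585B (1.23) 94.5%, and ZNF33A (0.54) and ZNF33B (0.57) 86.5%. Reads from such near copies can be divided between them in counting, so single values of these genes are uncertain.

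Genes for the partners of KRAB proteins are given beside the members, with no test of the difference. A list of 22 corepressor and heterochromatin genes had a median difference of 0.35, below the 0.50 of all tested features, and of -0.19 with TMM scaling, with 15 higher (68.2%, beside 66.4% of all tested features) and 2 (MTA1 and MTA2) lower in both siCNOT4 libraries. None passed the adjusted test in limma, although MTA1 (-0.95) and MTA2 (-0.94) were called lower with TMM scaling (adjusted p = 0.0341 for each). At an unadjusted p under 0.05, 6 of the 22 were higher and 0 lower. Both shares were below the 38% and 4% of all tested features. TRIM28, the corepressor that KRAB binds, was at 305 and 250 TPM in siControl and 329 and 365 TPM in siCNOT4 (0.33, limma adjusted p = 0.158, and -0.22 with TMM scaling). SETDB1 was at 45.6 and 34.1 TPM in siControl and 59.9 and 61.9 TPM in siCNOT4 (0.61, limma adjusted p = 0.0889). In both genes the groups did not overlap.

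Related C2H2 families are given at the same limit of 8 TPM. ZBTB genes, which pair fingers with a BTB domain, had a median of 0.72 over 25 genes. Of these 1 was called higher (4%), beside 11.3% of all tested features. ZSCAN genes had 0.59 over 11 genes with 1 called higher (9.09%), and ZFP genes 0.53 over 12 genes with 1 called higher (8.33%). At this limit both medians were nearer to the 0.50 of all tested features than to the 0.75 of the members. Without the limit they were not, since all tested ZSCAN genes (16) had a median of 0.74 and all tested ZFP genes (17) of 0.74. ZKSCAN genes had 1.10 over 6 genes with none called, although all 6 were higher at an unadjusted p under 0.05, beside 38% of all tested features. The 137 tested ZNF genes below 8 TPM had a median of 0.73, and 18 of them (13.1%) were called higher, beside 11.3% of all tested features. The difference between the members and these families was not tested.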

How the data were processed

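The authors deposited 1 table of TPM per library for 20457 gene symbols, summing to the same total in each. FastQC 0.11.2, STAR 2.5.3a, featureCounts and hg19 are named in the submitters' processing notes. The annotation and strand setting are not given in the sources used here. TPM keeps no read depth, so no counting intervals are given. Groups came from the sample titles. Features with a mean of at least 1 TPM (14208) were fitted as log2(TPM + 1) with limma 3.58.1 (lmFit, eBayes with trend, R 4.3.3), 2 libraries against 2, with Benjamini-Hochberg adjustment over all of them. On simulated data for this comparison (14208 genes, 200 changed), changes of 1, 2 and 3 log2 units were called in 0, 25 and 153 genes. As many changed up as down there, and the other genes did not shift. In the data the median difference was 0.50 and 81.2% of tested features were positive. The adjustment depends on how many features change, so the simulation does not give the recovery in these data. Some members with differences below 1 were called.

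Coding sequences, coordinates and overlaps are from GENCODE 29 (GRCh38), matched by symbol. GC3, fingers, SCAN and linkers were read from the longest complete coding sequence of each gene. This build is not that of the reads, and no coordinate comes from the authors. KRAB boxes were found with a profile (pyhmmer 0.12.3, E-value up to 0.001) built from 273 strict matches, which replaced 2 simpler patterns that missed known members. The profile was run on all complete coding isoforms (55488 proteins). A gene's KRAB box and its finger number can therefore come from different isoforms. Identity is from pairwise alignment (biopython 1.88).

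Named genes were the 8 greatest and 8 lowest differences, the 6 most abundant, up to 10 with the smallest adjusted p, those around 8 TPM, the 3 lowest and highest in GC3, members beyond 1.5 interquartile ranges, and CNOT4, TRIM28 and SETDB1. The 6 other genes called higher, 2 neighbours, the extremes of runs, lettered members and linker examples were added later. The members and lists were chosen with earlier results of these data known, and the groupings by KRAB, fingers, GC3, linkers and runs after values had been seen. Alternatives were pseudocount, filter, scaling, length and GC trend, replicate block and leaving out each library.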

Additional observations from a re-analysis of the deposited data

How the results depend on the processing

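The direction of the members' median held under every alternative run, but the number of called members did not. With all libraries 18 members were called higher and 0 lower, and 1792 features in all. The count higher was 3 with a pseudocount of 0.1 (558 features in all), 1 with no filter (908), 0 with a mean of at least 5 TPM (147), 4 with TMM scaling, 11 at a limit of 16 TPM and 11 with members chosen on the siControl mean, an alternative added after seeing the data. The count lower was 4 with TMM scaling, 14 with quantile normalization and 18 with the trend removed (3370 features in all). Leaving out 1 library gave 0 to 274 higher, 0 to 15 lower and 450 to 11311 features. The highest counts came without siControl replicate 1 or 2, when only the siCNOT4 spread remains and the lone control is assumed to vary alike. The replicate numbers share no stated origin (correlation of same-numbered deviations 0.171 across genes, 2 pairs), and a replicate block gave 62 members higher, 0 lower and 3655 features. Shares of all features by direction are given above for the main fit, TMM scaling, quantile normalization and the trend. For the other fits the feature totals cover both directions, so these counts do not place the members above or below all features.

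The members' median difference of 0.75 was 0.23 with TMM scaling, 0.17 with quantile normalization and 0.095 with the trend removed, and 0.40 to 1.02 with 1 library left out. Its excess over all features, 0.25, was 0.40 with no filter, 0.15 with quantile normalization, 0.098 with the trend removed, 0.16 with members chosen on siControl, and 0.10 to 0.31 with 1 library left out. Causes were not tested.

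Over 42 named genes and 461 alternatives, 26 values turned sign. With TMM scaling these were ZNF207 (-0.26), ZNF146 (-0.52), ZNF302 (-0.22), ZNF784 (-0.14), ZNF595 (-0.062), ZNF496 (-0.098), ZNF276 (-0.25), ZNF703 (-0.51) and TRIM28 (-0.22). With quantile normalization they were ZNF146 (-0.095), ZNF784 (-0.28), ZNF595 (-0.21), ZNF496 (-0.23), ZNF276 (-0.39) and ZNF703 (-0.52). With the trend removed they were ZNF207 (-0.13), ZNF146 (-0.68), ZNF302 (-0.14), ZNF595 (-0.26), ZNF496 (-0.19), ZNF800 (-0.052) and ZNF703 (-0.25). With 1 library left out, ZNF146 ranged from -0.23 to 0.28, ZNF496 from -0.25 to 1.00 and ZNF703 from -0.34 to 0.38, lowest without siControl replicate 2 (ZNF703 was also -0.086 without siCNOT4 replicate 2). Of the others, 291 kept their call, 74 became called and 70 were lost. TPM tables hold no counts, so precision at low values cannot be given.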
